A study of Saccharomyces cerevisiae with 18 samples.

Results

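The hexose transporter genes HXT1 to HXT7, the glucose sensor genes SNF3 and RGT2 and the regulator gene STD1 were followed in 18 poly(A) RNA libraries of budding yeast. These 10 genes were taken by identifier from the 7036 features counted in each library, as a set chosen by function with earlier results of these data known: HXT1 (YHR094C), HXT2 (YMR011W), HXT3 (YDR345C), HXT4 (YHR092C), HXT5 (YHR096C), HXT6 (YDR343C), HXT7 (YDR342C), SNF3 (YDL194W), RGT2 (YDL138W) and STD1 (YOR047C). All 3 strains were of the S288C background and carried GFP fused to NUP60, the gene of a nuclear pore basket protein, so no untagged strain was included. Residue 467 of Nup60 was lysine in WT, asparagine in K467N, meant to resemble the acetylated residue, and arginine in K467R, meant to resemble the residue without acetyl. The marker beside the fusion was HIS3 of S. kluyveri in WT and K467N and HIS3MX6 in K467R, so in every comparison with K467R the marker and the substitution cannot be told apart. Each strain had 6 libraries. The asynchronous cultures grew in YP with adenine and 2% glucose at 25 °C and were taken at 0.6 to 0.7 OD after dilution to 0.1. The study's question was whether this acetylation matters for transcription at large. The labels name no separate cultures, clones or batches, so p-values here reflect only how these samples vary, which may be technical.

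Yeast takes up glucose by facilitated diffusion through Hxt proteins, a family that differs in affinity for the sugar. Snf3 and Rgt2 resemble transporters but act as sensors in the plasma membrane, with long tails in the cytoplasm. Snf3 responds to low and Rgt2 to high glucose. In the absence of the signal, the repressor Rgt1 holds HXT promoters off together with the related proteins Mth1 and Std1, which are degraded when glucose is sensed. A second arm acts through the kinase Snf1 and the repressor Mig1, which turns down high-affinity transporter genes and SNF3 when glucose is plentiful.

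HXT6 and HXT7 are neighbours on chromosome IV and almost the same gene. In RefSeq R64, their coding sequences of 1713 bases differed at 3 positions, T1632C, G1666A and T1677C, with the HXT6 base first and positions counted from the A of the start codon. The first 1631 bases were identical. The ends of the coding sequences, from position 1632 to the stop codon, are shown. Within the coding sequence, they are the part by which a read can be given to 1 of the pair. Bases beyond the coding sequences, which a read may also reach, were not compared. Capitals mark the 3 differing bases. Both lie on the minus strand of R64, at chrIV:1159608-1159689 for HXT6 and chrIV:1154216-1154297 for HXT7.
HXT6: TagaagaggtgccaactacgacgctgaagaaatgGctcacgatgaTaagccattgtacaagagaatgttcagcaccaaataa
HXT7: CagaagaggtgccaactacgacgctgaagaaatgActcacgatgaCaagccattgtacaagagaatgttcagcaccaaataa

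Of the 1614 windows of 100 bases in each of these coding sequences, 82 (5.08%) occurred once in the genome. Every window of HXT2, HXT4, SNF3, RGT2 and STD1 did so. In HXT1, HXT3 and HXT5 the share was 98.8%, 96.4% and 98.8%. HTSeq set aside reads with several alignments, which were 18.3 to 19.6% of the reads it sorted in each library, so the counts of HXT6 and HXT7 rest on a small part of each gene. The other pairs of HXT1 to HXT7 were 70.4 to 83.0% identical over aligned coding bases, HXT1 and HXT3 being the most alike of them.

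**Figure D1:**
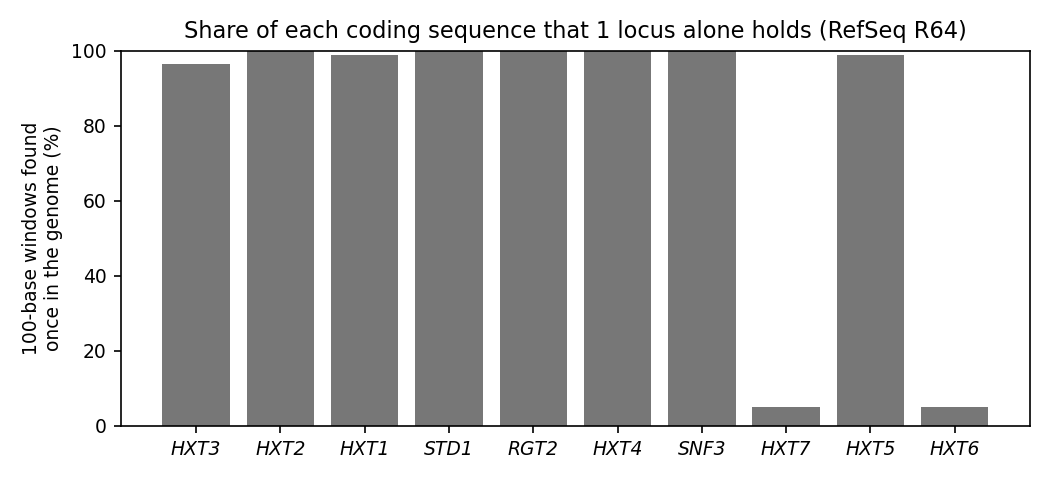
Share of 100-base windows of each coding sequence that occur once in the RefSeq R64 genome, in percent, with genes in the order of their level in WT. HXT6 and HXT7 stand at 5.08% and the other 8 genes at 96.4% or more.

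The Rgt1 motif CGGANNA was counted on both strands of the 1000 bases before each start codon, over 5892 genes. HXT3 had 9 matches and HXT1 had 8, which 0.017% and 0.034% of all genes reached. HXT5 had 4 matches, HXT2, HXT4, HXT6 and STD1 had 3 each, HXT7 had 2, and SNF3 and RGT2 had 0, where 67.1% of all genes had at least 1. The Mig1 motif, searched as CCGGGG or as CTGGGG or as GCGGGG or as GTGGGG on both strands, matched 4 times before HXT2 and HXT4, which 0.849% of all genes reached. It matched 3 times before HXT6, 2 times before HXT1, HXT3, HXT7 and SNF3, 1 time before HXT5 and 0 times before RGT2 and STD1, and 41.9% of all genes had at least 1 match. Neighbouring matches may overlap, and a match is a string of letters and not a shown binding site.
The 100-base windows with the most Rgt1 motifs are printed for HXT1, HXT3 and HXT2, the 3 genes with the highest levels, which also moved together between libraries. Capitals mark the motifs, of which HXT3 had 4 in its window, HXT1 3 and HXT2 2. They lie at chrVIII:293018-293117 on the minus strand for HXT1, from base -492 to base -393 counted from the start codon, at chrIV:1165014-1165113 on the minus strand for HXT3, from base -453 to base -354, and at chrXIII:287589-287688 on the plus strand for HXT2, from base -490 to base -391, all in R64.
HXT1: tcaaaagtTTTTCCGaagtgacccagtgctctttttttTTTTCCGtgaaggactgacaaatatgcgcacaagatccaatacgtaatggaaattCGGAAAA
HXT3: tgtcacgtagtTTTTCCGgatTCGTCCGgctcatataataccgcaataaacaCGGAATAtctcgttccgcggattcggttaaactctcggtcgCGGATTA
HXT2: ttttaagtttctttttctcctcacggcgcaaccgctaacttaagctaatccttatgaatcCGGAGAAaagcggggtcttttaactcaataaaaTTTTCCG

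Between 12395725 and 19093010 reads per library were counted on genes. The 10 genes together took 0.129 to 0.213% of them. All 10 passed the filter on low counts, among 5660 tested features. NUP60 itself ranged from 77.0 to 94.4 CPM (gene counts brought to 1 common library size) over the 18 libraries. HIS3 ranged from 71.8 to 95.8 CPM in WT and K467N, and the 6 K467R libraries held 1 HIS3 count in all. In comparisons with K467R this difference, like that of the marker, cannot be told apart from the substitution. The 6 genes listed for mating type a summed to 1089 to 1346 CPM over the 18 libraries, with STE2 at 467 ± 35.8 CPM in WT (SD, n = 6), and the 4 listed for mating type alpha to 23.3 to 41.4 CPM, with SAG1 at 33.6 ± 5.24 CPM in WT.

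HXT3, HXT2 and HXT1 made up nearly all of the transporter RNA counted in 2% glucose. Levels between genes are compared per length, as CPM per kb of coding sequence. HXT3, a low-affinity transporter gene, was the highest member in WT at 452 ± 76.3 CPM per kb (SD, n = 6), rank 363 of 5472 protein-coding genes. HXT2, a high-affinity transporter gene, was next at 292 ± 60.1 CPM per kb, rank 521. HXT1, the other low-affinity gene, stood at 143 ± 27.2 CPM per kb, rank 1037. Each was above the next in all 6 WT libraries, and their ranges did not overlap. In bulk RNA, fewer cells that express a gene and less RNA of it per cell cannot be told apart.

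HXT3 held 50.1 ± 0.962% of the summed level of HXT1 to HXT7 in WT, HXT2 32.1 ± 1.46% and HXT1 15.8 ± 1.01%. Together the 3 genes held 98.0 ± 0.413% in WT, 98.0 ± 0.317% in K467N and 98.1 ± 0.333% in K467R, and 94.4% in WT if levels were set per base in windows that occur once. The low-affinity genes HXT1 and HXT3 together made up 64.3 to 68.1% in WT libraries, 63.9 to 66.6% in K467N and 63.0 to 68.2% in K467R. The ratio of HXT3 to HXT2 per kb ran from 1.43 to 1.70 in WT, 1.42 to 1.61 in K467N and 1.36 to 1.69 in K467R, so these ranges overlapped. The ratio of HXT3 to HXT1 per kb was lower in K467R, at 2.89 ± 0.149, against 3.18 ± 0.219 in WT and 3.06 ± 0.123 in K467N. It ran from 2.97 to 3.52 in WT and from 2.67 to 3.10 in K467R, so these ranges overlapped in part. HXT1 held 16.1 ± 0.594% of the summed level in K467N and 17.0 ± 1.03% in K467R. Differences between strains in these ratios and shares were not tested. Shares and ratios within a library do not depend on how libraries are scaled to each other.

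The other transporters were low. HXT4, a high-affinity gene, stood at 15.1 ± 2.64 CPM per kb in WT, below the median of 41.1 over the 5472 genes. HXT5, known for expression in slowly growing or starved cells, stood at 0.679 ± 0.346, with 6 to 40 counts in a WT library. HXT7 was listed at 1.29 ± 0.4221 CPM per kb and HXT6 at 0.596 ± 0.208, from 21 to 41 and 8 to 29 counts in a WT library. Divided by the length in 100-base windows that occur once, a choice made after seeing the data, HXT7 came to 25.4 and HXT6 to 11.7 CPM per kb. Windows that reach beyond the coding sequence were not counted in that length. No source used here gives the read length, and the levels of this pair are known only to this extent.

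Among the regulators, STD1 was the highest at 49.98 ± 3.75 CPM per kb in WT. RGT2, the sensor of high glucose, followed at 20.04 ± 2.66 CPM per kb, and SNF3, the sensor of low glucose, at 4.77 ± 0.544. RGT2 was above HXT4 in all 6 WT and all 6 K467N libraries, although their ranges overlapped in both strains. Among the lowest 3 per full coding length, the ranges of HXT7 and HXT5 and those of HXT5 and HXT6 overlapped in every strain. On that scale SNF3 lay above HXT7 without overlap in each strain, and the order of the 10 genes in WT recurred in K467N and K467R. Per base in windows that occur once, WT had HXT7 at 25.4 and HXT6 at 11.7 CPM per kb, both above SNF3. HXT7 then also stood above RGT2 at 20.04 and HXT4 at 15.1, and below STD1. The place of this pair in the order thus depends on the length used.

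**Figure D2:**
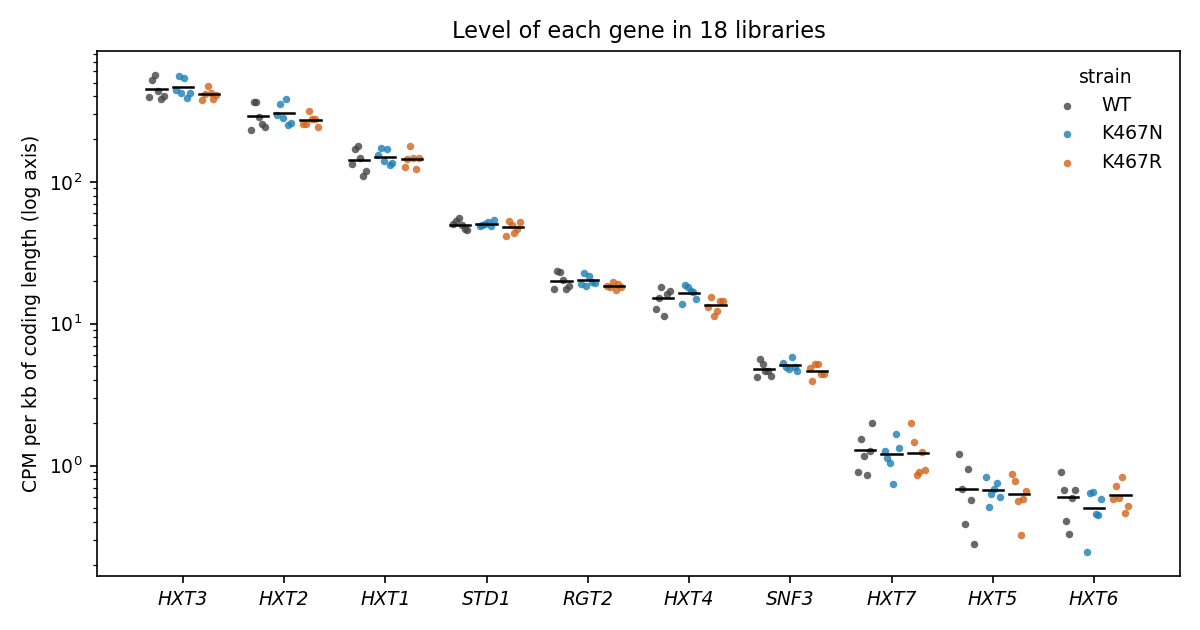
Level of each gene in each library, in CPM per kb of coding length on a log axis, by strain; points are libraries and black bars are means of 6. HXT3, HXT2 and HXT1 lie above 100 CPM per kb in all libraries, and HXT7, HXT5 and HXT6 at or below 1.99.

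Genes that low glucose or its absence switches on were measured in the same libraries. Of the 10 listed, SUC2, which encodes invertase, had the most reads, at 70.7 ± 2.28 CPM in WT. Its 44.2 CPM per kb lay near the median of 41.1 over all protein-coding genes. The other listed genes stood below that median, at 0.513 to 19.5 CPM per kb in WT. The summed level of the 10 genes was 125 to 135 CPM in WT libraries, 121 to 132 in K467N and 118 to 136 in K467R, and 0 of them passed the edgeR test in each comparison, where at most 0.0707% of all genes did.

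The values of the 3 main transporter genes overlapped between strains. HXT3 had a lowest, median and highest value of 658, 715 and 970 CPM in WT, 666, 739 and 949 in K467N, and 645, 707 and 813 in K467R. The highest HXT3 value of K467R thus lay below the 2 highest of either other strain, and the lowest values of the 3 strains were close. HXT2 had a lowest, median and highest value of 378, 442 and 596 CPM in WT, 407, 470 and 621 in K467N, and 397, 435 and 517 in K467R. HXT1 had values of 188, 240 and 304 CPM in WT, 226, 251 and 298 in K467N, and 210, 250 and 306 in K467R, and its ranges overlapped almost fully.

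K467N was set against WT to see the acetyl mimic's effect on these genes. None of the 10 rose or fell in edgeR's quasi-likelihood test at an adjusted p of 0.05 over all 5660 genes, where 0.0707% of genes were called, and 0 of the 10 had an unadjusted p under 0.05, where 1.15% of genes did. DESeq2 and limma-voom also called 0 of 10, with 0 at an unadjusted p under 0.05. HXT1 had a log2 fold change of 0.08 ± 0.11 (SE), HXT3 of 0.03 ± 0.10 and HXT2 of 0.06 ± 0.12. The 95% interval of the fold was 0.898 to 1.24 for HXT1, 0.884 to 1.18 for HXT3 and 0.878 to 1.23 for HXT2. HXT4 was at 0.14 ± 0.11, SNF3 at 0.09 ± 0.08, RGT2 at 0.01 ± 0.07 and STD1 at 0.01 ± 0.06, all as log2 fold changes. The intervals were widest for HXT6 (0.580 to 1.19), HXT7 (0.667 to 1.33) and HXT5 (0.636 to 1.39). Over the 10 genes the median log2 fold change was 0.02, with 7 above 0, and over all tested genes it was 0.000298, with 50.2% above 0. Each of the 10 had an adjusted p of 0.999 (edgeR).

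The comparison of K467R with WT asks the same of the mimic of deacetylated lysine. Again 0 of 10 genes rose or fell in edgeR, where 0.0707% of genes were called, and 0 of 10 had an unadjusted p under 0.05, where 5.67% of genes did. DESeq2 and limma-voom called 0 of 10, with 0 at an unadjusted p under 0.05. HXT3 had a log2 fold change of -0.12 ± 0.10, with an interval of 0.793 to 1.06 as a fold. HXT2 was at -0.10 ± 0.12 and HXT1 at 0.01 ± 0.11 on the same scale. With 2 surrogate variables in the fit the values were 0.01 for HXT3, 0.04 for HXT2 and 0.16 for HXT1, the last with an unadjusted p of 0.0135 and an adjusted p of 0.345 (edgeR), the lowest adjusted p of HXT1 over the 28 alternatives. HXT4 was at -0.16 ± 0.11, RGT2 at -0.12 ± 0.07, STD1 at -0.06 ± 0.06 and SNF3 at -0.03 ± 0.09. The median over the 10 genes was -0.08 with 2 above 0, and over all genes -0.01 with 46.9% above 0. Adjusted p for the 10 ran from 0.747 to 0.975 in edgeR.

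The comparison of K467N with K467R sets the opposite mimics against each other. None of the 10 genes passed in edgeR, where 0.0177% of genes were called, and 1 had an unadjusted p under 0.05, where 11.2% of genes did. DESeq2 and limma-voom each called 0 of 10 and each had 1 gene at an unadjusted p under 0.05. That gene in edgeR was HXT4. Its lowest, median and highest values were 23.7, 29.3 and 32.3 CPM in K467N, 19.6, 23.7 and 26.9 in K467R, and 19.7, 27.0 and 31.6 in WT. The K467N libraries sat higher than those of K467R but the ranges overlapped, and WT spanned both. The log2 fold change of K467N over K467R was 0.30 ± 0.11, a fold with an interval of 1.05 to 1.43, and the adjusted p was 0.408 (edgeR, quasi-likelihood). It stayed between 0.25 and 0.34 over 28 alternatives, with adjusted p from 0.218 to 0.999. HXT3 was at 0.16 ± 0.10, HXT2 at 0.16 ± 0.12, HXT1 at 0.06 ± 0.11 and RGT2 at 0.13 ± 0.07 on this scale. The median over the 10 genes was 0.11 with 8 above 0, and over all genes 0.01 with 52.5% above 0. With surrogate variables HXT3 was at -0.02, HXT2 at -0.02 and HXT1 at -0.13, the last with an unadjusted p of 0.0419 and an adjusted p of 0.804 (edgeR). These comparisons share the libraries of each strain, so their values are not independent of one another.

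**Figure D3:**
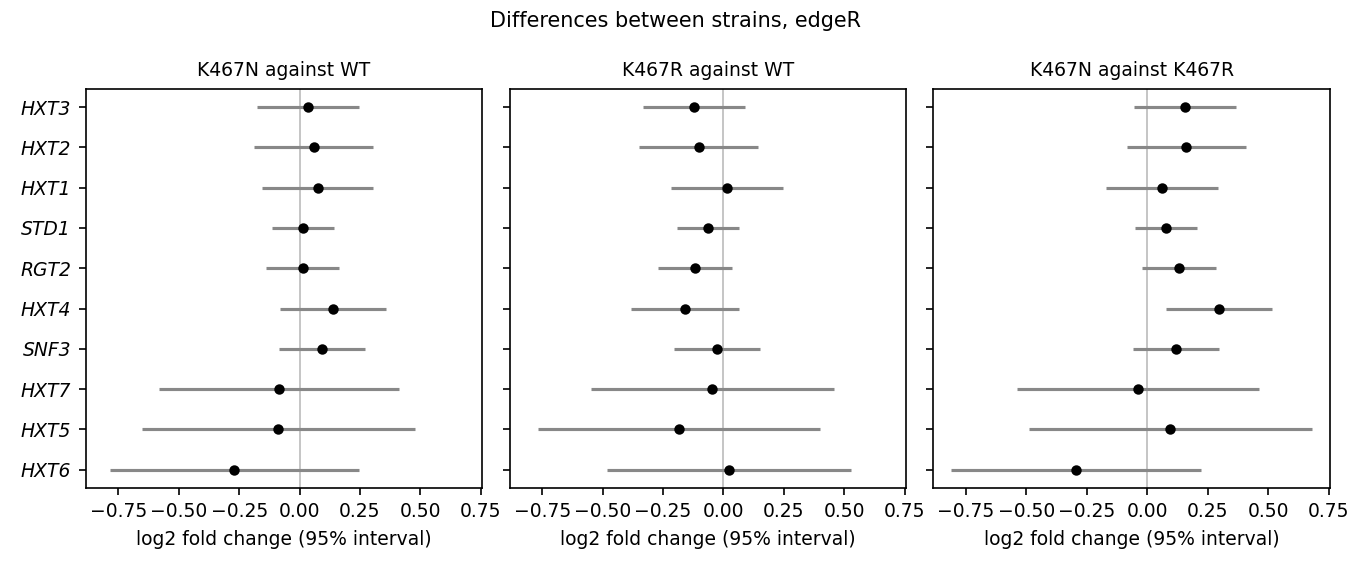
Log2 fold change of each gene in the 3 comparisons, with 95% intervals from edgeR (6 libraries per strain). Every interval crosses 0 except that of HXT4 in K467N against K467R, at 0.30, whose adjusted p was 0.408.

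In no comparison did the libraries of the strains separate without overlap for any of the 10 genes, where 0.124%, 0.283% and 0.283% of all genes did so in K467N against WT, K467R against WT and K467N against K467R. The HXT6 and HXT7 counts added together gave log2 fold changes of -0.14, -0.02 and -0.12 in the same order, with adjusted p of 0.999, 0.966 and 0.719 in edgeR.

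The main transporter genes moved together from library to library within strains. After the mean of its strain was taken from each log2 CPM value, HXT1 and HXT3 had a Pearson r of 0.93 over 18 libraries (Spearman rho 0.90; permutation p = 1e-05 for both, the smallest that 100000 permutations within strains can give, and 0.00045 after Benjamini-Hochberg adjustment over 45 pairs). Without the 2 libraries farthest from the median of HXT1 the r was 0.92. It was 0.94 in WT, 0.98 in K467N and 0.99 in K467R. HXT3 and HXT2 had an r of 0.92 (rho 0.88; permutation p = 8e-05 and 0.00017, adjusted 0.0018 and 0.00382) and 0.91 without 2 libraries, with 0.96, 0.96 and 0.66 in the 3 strains. HXT1 and HXT2 had an r of 0.82 (rho 0.76, permutation p = 0.00026 and 0.00203, adjusted 0.0039 and 0.0228). In WT, K467N and K467R that r was 0.88, 0.95 and 0.57. Of all 5659 other tested genes, 4 were at least as like HXT1 as HXT3 was, HXT3 included. Counted likewise, 36 were at least as like HXT3 as HXT2 was, and 284 at least as like HXT1 as HXT2 was.

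The sensor gene RGT2 moved with HXT2 and HXT3 over the 18 libraries. It had an r of 0.87 with HXT2 (rho 0.81; permutation p = 0.00044 and 0.00156, adjusted 0.0048 and 0.0228) and 0.84 without the 2 farthest libraries. In the strains that r was 0.98 in WT, 0.77 in K467N and 0.55 in K467R. With HXT3 its r was 0.85 (rho 0.74; permutation p = 0.0006 and 0.00459, adjusted 0.0048 and 0.0344; 0.77 without the 2 farthest), and 0.24 in K467R. With HXT1 it was 0.78 (rho 0.68; permutation p = 0.00146 and 0.00949, adjusted 0.00939 and 0.061; 0.68 without the 2 farthest), and 0.24 in K467R. The difference between strains was not tested. RGT2 included, 70 of 5659 genes were at least as like HXT2 as RGT2 was, 278 as like HXT3 and 566 as like HXT1. SNF3, the other sensor gene, had an r of 0.75 with HXT2 (rho 0.68, permutation p = 0.00064 and 0.00358, adjusted 0.0048 and 0.0322). Its r with HXT3 was 0.62 and with HXT1 0.60 (permutation p = 0.00983 and 0.02, adjusted 0.0553 and 0.0915). SNF3 included, 420 genes were at least as like HXT2 as SNF3 was. HXT4 showed no such relation over the 18 libraries together: its r with HXT1 was -0.06 and with HXT3 0.19 (permutation p = 0.846 and 0.523, adjusted 0.876 and 0.781; rho -0.12 and 0.17). With HXT2 the r of HXT4 was 0.14 (rho 0.04, permutation p = 0.636 and 0.888, adjusted 0.808 and 0.951). In WT, K467N and K467R it was 0.03, 0.28 and -0.56 with HXT1, 0.34, 0.39 and -0.57 with HXT3, and 0.29, 0.37 and -0.74 with HXT2. These differences in sign between strains of 6 libraries each were not tested. HXT6 and HXT7, which share nearly all their sequence, had an r of 0.05 (rho -0.01, permutation p = 0.859, adjusted 0.876), from 6 to 48 counts in a library.

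In WT, HXT3 ran from 0.21 below the strain mean in WT 5 to 0.35 above it in WT 3, on the log2 scale. In K467N the highest library was K467N 2 at 0.28, and in K467R it was K467R 3 at 0.20. WT 2, WT 3, K467N 2, K467N 4 and K467R 3 were above their strain means for HXT1, HXT2, HXT3 and RGT2 alike.

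**Figure D4:**
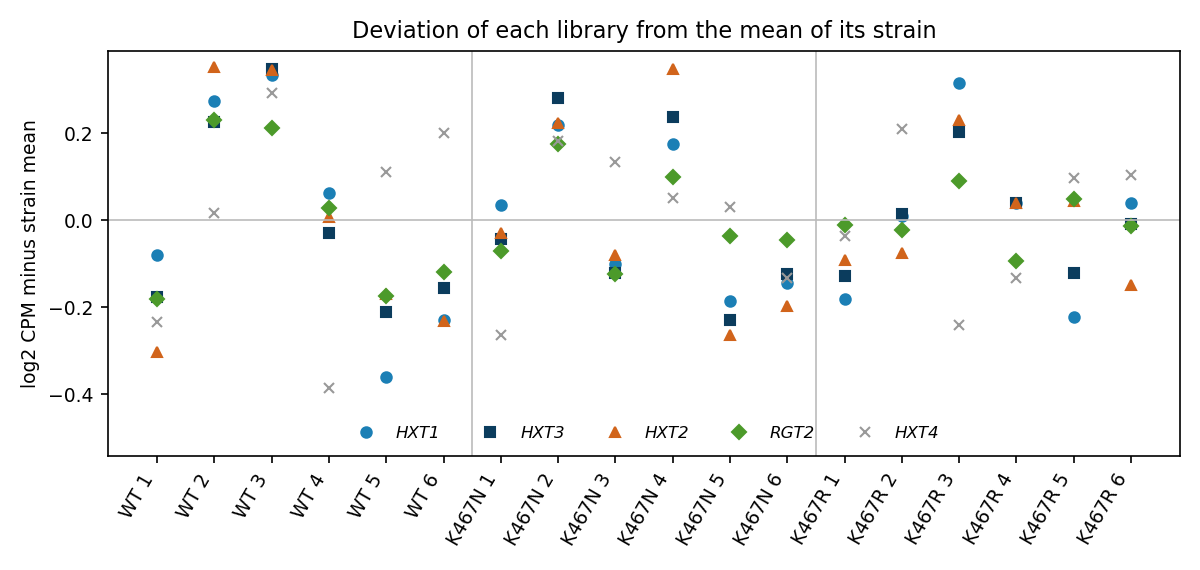
Log2 CPM minus the mean of the strain in each library for 5 genes; grey lines part the strains. HXT1, HXT2, HXT3 and RGT2 are high together in WT 2, WT 3, K467N 2, K467N 4 and K467R 3, and HXT4 (grey crosses) follows another course.

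A property of whole libraries moved with these genes. The TMM factor, which scales a library by the bulk of its genes, ran from 0.910 to 1.06. Its log2 deviation had an r of 0.85 with HXT3 (rho 0.92; permutation p = 3e-05 and 2e-05, adjusted 0.0012 and 0.0008 over 40 relations of 10 genes with 4 library measures) and 0.90 without the 2 farthest libraries. For HXT1 it was 0.82 and for HXT2 0.81 (rho 0.84 for both; permutation p = 0.00014 and 7e-05, adjusted 0.00187 and 0.0014; 0.85 and 0.90 without the 2 farthest). Among all tested genes, 7.19% had an r with the factor at least as high as HXT3, so the relation is shared by many genes. That share was 10.5% for HXT1 and 11.4% for HXT2. RGT2 had an r of 0.64 with the factor (rho 0.63, permutation p = 0.00434 and 0.0126, adjusted 0.0354 and 0.072), which 24.1% of genes reached. The share of reads with several alignments went the other way, at -0.57 with HXT3 (rho -0.74; permutation p = 0.0062 and 0.00054, adjusted 0.0354 and 0.00432; -0.67 without 2 libraries). Scaled by raw totals in place of TMM, the r of HXT1 with HXT3 was 0.95. The part of these library properties in the shared movement of the transporter genes was not tested.

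**Figure D5:**
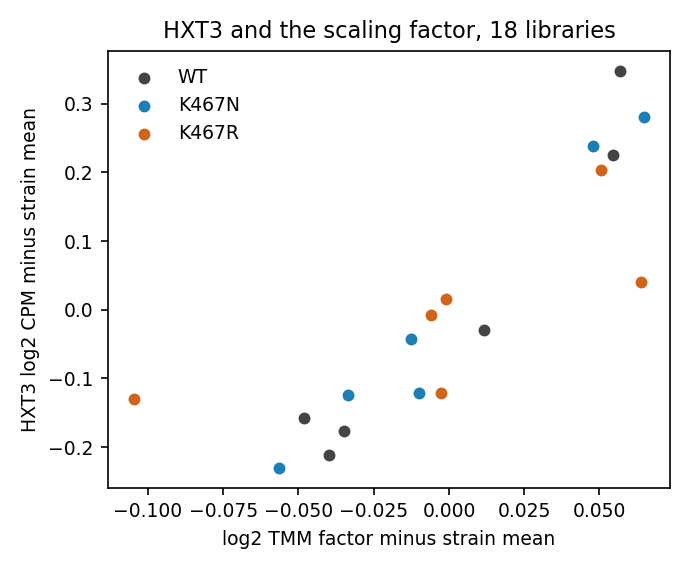
HXT3 log2 CPM minus the strain mean against the log2 TMM factor minus its strain mean, 1 point per library (18), coloured by strain. Libraries with a higher factor have more HXT3, with an r of 0.85.

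The genes most like each member over the 18 libraries, from 5147 with a mean of at least 5 CPM, are named as a description, with r of strain deviations and no test, since they were picked as the highest. For HXT3 they were EPS1, a gene of an endoplasmic reticulum protein of the disulfide isomerase family (0.97), and OPT1, an oligopeptide transporter gene (0.97). For HXT2 they were the glutamine permease gene GNP1 (0.96) and CWH41, which encodes a glucosidase of the endoplasmic reticulum (0.94), and for HXT1 MGA2 (0.95), whose product starts as an endoplasmic reticulum membrane protein and activates OLE1, and UTP21 (0.94), of ribosome biogenesis. RGT2 had HRD3, of degradation at the endoplasmic reticulum (0.94), and the ergosterol gene ERG4 (0.92). SNF3 had the borate exporter gene BOR1 (0.81) and the multicopper oxidase gene FET5 (0.79). HXT4 had BAR1, which encodes the protease that cleaves alpha factor (0.85), and the polyamine exporter gene TPO1 (0.82). STD1 had the transcription factor gene HAA1 (0.86) and YMR181C (0.82). The 3 members with the fewest counts were HXT7, HXT5 and HXT6. HXT7 had PTK1 (0.87) and YPL247C (0.86), HXT5 had ZPS1 (0.83) and MRP1 (0.70), and HXT6 had COQ11 (0.70) and SDS3 (0.63).

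The rest of the glucose pathway gave 0 genes past the edgeR test in each comparison, in 6 lists, where 0.0707%, 0.0707% and 0.0177% of all genes passed in K467N against WT, K467R against WT and K467N against K467R, so that a count of 0 is near this background. Of the 7 listed genes of the Rgt1 arm, the 2 of smallest p were YCK2, a casein kinase gene that acts with the sensors (log2 fold change of K467N over K467R 0.07 ± 0.03), and GRR1, the F-box gene needed for Mth1 and Std1 to be degraded (0.16 ± 0.09), both with an adjusted p of 0.408. MTH1, the paralog of STD1 and chosen for mention after its values were seen, stood at 3.92 CPM per kb in WT, against 49.98 for STD1. Of the 16 genes of the Snf1 and Mig1 arm, SIP2, a subunit gene of the Snf1 complex, was at -0.18 ± 0.08 and the repressor gene MIG2 at -0.12 ± 0.05 in K467N over K467R, with an adjusted p of 0.408 for both. Of the 4 hexose kinase genes, HXK2, of the main hexokinase in glucose-grown cells, stood at 2050.5 ± 57.6 CPM in WT and was at -0.06 ± 0.04 and GLK1 at -0.10 ± 0.07 in K467N over K467R (adjusted p = 0.427 and 0.444, edgeR).

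Of 10 genes of the Gpr1 receptor pathway, which senses glucose at the surface and acts through protein kinase A, GPR1 was at 0.20 ± 0.10 in K467N over K467R (adjusted p = 0.408, edgeR). Of 6 genes for ubiquitination and endocytosis of transporters, the ubiquitin ligase gene RSP5 was at -0.12 ± 0.05 in K467R over WT (adjusted p = 0.747, edgeR) and its adaptor gene ROD1 at 0.16 ± 0.07 in K467N over K467R (adjusted p = 0.408, edgeR). List medians of log2 fold changes lay between -0.05 and 0.12 in these 5 lists, except that of the ubiquitination list in K467R over WT, at -0.11, beside medians of -0.01 to 0.01 for all genes.

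Of 11 other genes of the transporter family, HXT8 to HXT17 and the galactose permease gene GAL2, 2 had enough counts to be tested. HXT8 had 97 counts over the 6 WT libraries, at 1.12 ± 0.216 CPM, and GAL2 had 70, at 0.829 ± 0.273 CPM. GAL2 had a log2 fold change of -0.64 ± 0.37 in K467R over WT, with an adjusted p of 0.747, and HXT8 of 0.07 ± 0.18 in K467N over K467R, with an adjusted p of 0.847 (edgeR). HXT9, HXT10, HXT11 and HXT17 had 32 to 46 counts summed over WT, HXT12, HXT13 and HXT14 7 to 10, and HXT15 and HXT16 0. Of the 100-base windows of HXT15 and of HXT16, 12.5% occurred once in R64. Their counts thus rest on a small part of each gene, as those of HXT6 and HXT7 do. The share was 52.9% in HXT9 and 54.6% in HXT11, so part of these genes is also left out of their counts. HXT12 was not measured in this way.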

How the data were processed

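Poly(A) RNA of 18 yeast libraries was sequenced after stranded TruSeq preparation from 600 ng of RNA with 12 PCR cycles. The deposited values are raw counts per gene, for which the authors named HTSeq 0.6.1p1, STAR 2.5.3a and bcl2fastq 2.20.0.422, per the submitters' processing notes. The strand setting, read length, annotation and genome build were not given in sources used here, and sequences and coordinates come from RefSeq R64 by gene identifier. Counts were scaled by TMM after filterByExpr (5660 of 7036 features kept) and tested with edgeR 4.0.16 (R 4.3.3) quasi-likelihood, strain as the term, over all 18 libraries, with Benjamini-Hochberg adjustment at 0.05. Log2 CPM for correlations used a prior count of 2. Alternatives used DESeq2 1.42.0, limma 3.58.1 and sva 3.50.0, other scalings and filters, and each library left out. Scripts for the tests were tested on simulated data. Library pairs all differed beyond sampling noise. Members and gene lists were chosen with earlier results of these data known. Genes named are the 10 members, from each pathway list those past the test and the 2 of smallest p, the gene with the most reads in each state or mating type list, and the 2 genes most like each member. A gene that this rule names is not reported here.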

Additional observations from a re-analysis of the deposited data

How the results depend on the processing

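None of the 10 genes was called in any comparison under the 28 alternatives, of which the filter of 10 CPM tested 7 of them, without HXT5, HXT6 and HXT7. The 6 correlations among HXT1, HXT2, HXT3 and RGT2 stayed between 0.72 and 0.95 over 21 alternatives. Those were other scalings and left-out libraries only, without surrogate variables or other filters. Of 831 alternative log2 fold changes of the members, 53 changed sign, none of them past the threshold in the main test; the cause was not tested. With 2 surrogate variables HXT3 was at -0.0129 and RGT2 at -0.00558 in K467N over WT, HXT3 at 0.00869, HXT2 at 0.0416 and SNF3 at 0.0280 in K467R over WT, and HXT1 at -0.130, HXT3 at -0.0216, HXT2 at -0.0248 and HXT7 at 0.277 in K467N over K467R. Without K467R 1 and K467N 2, left out after seeing the data, HXT3 was at -0.0270 and RGT2 at -0.0233 in K467N over WT, and HXT1 at -0.0212 and HXT7 at 0.164 in K467N over K467R. HXT5 was at 0.0611 in K467N over WT by limma-voom, and HXT6 at -0.0222 in K467R over WT when its counts were added to those of HXT7. Leaving out single libraries, values in K467N over WT ran from -0.0244 to 0.110 for HXT3, -0.0147 to 0.134 for HXT2, -0.212 to 0.0621 for HXT7, -0.227 to 0.189 for HXT5, -0.0241 to 0.0624 for RGT2 and -0.0109 to 0.0456 for STD1. In K467R over WT they ran from -0.0548 to 0.0859 for HXT1, -0.102 to 0.214 for HXT6, -0.238 to 0.102 for HXT7, -0.322 to 0.0941 for HXT5 and -0.0626 to 0.0254 for SNF3. In K467N over K467R they ran from -0.165 to 0.152 for HXT7 and -0.0481 to 0.216 for HXT5. Over all genes, 2 in place of 4 were called in K467N over WT with a filter of 10 CPM, which tests fewer genes, and 8 in place of 4 in K467R over WT with surrogate variables. Per base in windows that occur once, chosen after seeing the data, HXT6 came to 11.7 and HXT7 to 25.4 CPM per kb, and shares to 30.3% for HXT2, 49.0% for HXT3 and 94.4% for HXT1, HXT2 and HXT3 together, since this setting shortens HXT6 and HXT7. No paired analysis was possible because the labels give no replicate numbers shared between strains, and those printed here only follow the order of the libraries within each strain. Low counts limit HXT5, HXT6 and HXT7.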
